A study of Homo sapiens with 9 samples.

Results

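The 9 genes described here are the regulators MDM2 and MDM4, the arrest genes CDKN1A and GADD45A, the target genes PHLDA3, ZMAT3 and TP53INP1, and the enzymes FDXR and RRM2B. They were taken from the raw count matrix by the symbol of each Ensembl ID, which found all 9 among 60675 listed IDs, and all 9 were among the 15982 genes with enough counts to test. RNA from cultured MM.1S cells was sequenced after 24 h with 0, 40 or 80 µM EGCG (epigallocatechin gallate), a catechin abundant in green tea, with 3 libraries per dose, and the libraries at 0 µM are called the control. All groups are 1 cell line at 1 time point, so no other line or earlier time enters a comparison. The submitters' stated aim was to learn how EGCG drives apoptosis of myeloma cells. Nothing in the labels says that the replicates were separate cultures, and p-values here speak of the spread among these libraries, which may be technical.

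The protein p53 is a transcription factor that halts the cell cycle or starts cell death after DNA damage and other stress. In unstressed cells the ubiquitin ligase MDM2 and its relative MDM4 hold p53 in check, and because p53 in turn switches MDM2 on, the pair forms a feedback loop. Active p53 raises genes for cell cycle arrest, of which CDKN1A (p21, an inhibitor of cyclin-dependent kinases) is the best known, together with genes for DNA repair, antioxidant defence and cell death. MM.1S is a line from multiple myeloma, a cancer of plasma cells.

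Library totals ran from 12674490 to 16427343 counts. All 9 plasma cell markers checked were expressed, at a summed 5499 to 6386 CPM (counts scaled by edgeR to a common library size). Markers of T and NK cells summed to 1.56 to 5.28 CPM with CD3D and NKG7 at 0, of monocytes to 4.91 to 16.0 CPM and of stroma to 0.892 to 3.90 CPM. The plasma cell sum was 6259 to 6386 CPM in the control and 5499 to 5810 CPM at 80 µM, and its part in the results below was not tested. Its genes moved both ways at 80 µM, with IRF4 and SLAMF7 higher by 0.72 and 0.45 on the log2 scale and MAF, MZB1 and CD38 at -0.80, -0.60 and -0.40 (edgeR's quasi-likelihood test, adjusted p from 0.00018 to 0.0127). Within bulk RNA, fewer cells of a type and less RNA per cell cannot be told apart. A pair of libraries stood apart for some of the 9 genes. In 40 µM replicate 2, MDM4 was high and ZMAT3 low, and in 80 µM replicate 3 CDKN1A was low, so results that rest on these libraries are given with and without them.

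Sequence upstream of the genes is shown first because p53 regulates MDM2 through a second promoter inside the gene. Promoter windows from RefSeq (GRCh38.p14) matched 5 of the 9 genes, MDM2, MDM4, CDKN1A, ZMAT3 and FDXR. The windows run from 250 bases before to 50 after each start, and were searched for a full p53 response element, meaning 2 adjoining copies of the consensus p53 half-site of 10 bases. This element reads the same on both strands, so 1 scan covers both. The 235 bases shown lie on the plus strand at chr12:68808767-68809001, in front of the RefSeq start at 68809017 and outside GENCODE 29 exons, and the capitals mark the 2 matches.
MDM2 second promoter: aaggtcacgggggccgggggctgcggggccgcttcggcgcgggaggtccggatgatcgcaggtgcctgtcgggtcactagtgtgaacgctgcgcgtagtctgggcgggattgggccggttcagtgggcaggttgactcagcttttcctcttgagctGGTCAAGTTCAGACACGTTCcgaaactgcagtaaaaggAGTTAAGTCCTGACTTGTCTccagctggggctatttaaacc
The next lines give each match by itself, with the bases that fit the consensus in capitals. The first MDM2 match at chr12:68808923-68808942 lies 94 to 75 bases before that start and has 2 mismatches. The second at chr12:68808961-68808980 lies 56 to 37 bases before it and has 3.
MDM2 match 1: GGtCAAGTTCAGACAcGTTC
MDM2 match 2: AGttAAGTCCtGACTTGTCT
FDXR match: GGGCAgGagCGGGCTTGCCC
The FDXR match lies on the minus strand at chr17:74872996-74873015, 21 to 2 bases before the RefSeq start at 74872994, has 3 mismatches and falls in a GENCODE 29 exon. Of 35116 promoter windows, 0.649% held an element with at most 2 mismatches and 5.2% one with at most 3. A further MDM2 window, whose start at 68809024 lies beside the first, holds the same 2 matches. The windows at the first promoter of MDM2 and those of MDM4 and CDKN1A (5 mismatches at best), those of ZMAT3 and the other FDXR window (4 at best) held none with 3 or fewer. A match is a description of letters, and no match says only that they are not in this window.

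A gene is said to rise or fall where edgeR's quasi-likelihood test gave an adjusted p under 0.05. Of the 9 genes, 4 rose at 40 µM (MDM2, CDKN1A, PHLDA3 and FDXR) and none fell, where 1.49% of all genes tested were called higher and 0.813% lower. At 80 µM 8 rose, all but MDM4, and none fell, against 17.4% and 17.5% of all genes. From 40 to 80 µM 7 rose, all but MDM4 and RRM2B, and none fell, against 10.9% and 12.1%. None of the 9 was lower at an unadjusted p under 0.05 in these comparisons, and DESeq2 and limma-voom gave the same counts of 4, 8 and 7. DESeq2 gave MDM4 no adjusted p, so it could not call that gene. The median log2 difference of the 9 was 0.65, 1.52 and 0.88 in the 3 comparisons, and that of all genes tested 0.0147, -0.0013 and -0.0107. The comparisons share libraries (the control in the first and second, each dose in another pair), so their counts are not separate evidence. The 9 genes were also chosen with earlier results of these data known. By library values alone, 6 of the 9 genes had every 40 µM library above every control library, as 12.9% of all genes did. All 9 did so at 80 µM (24.6% of all genes), and 8 had every 80 µM library above every 40 µM library (20.1%). The count at 40 µM fell to 1 without control replicate 1, control replicate 3 or 40 µM replicate 3, to 2 without 40 µM replicate 2 and to 2 with only the 6 libraries compared.

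**Figure D1:**
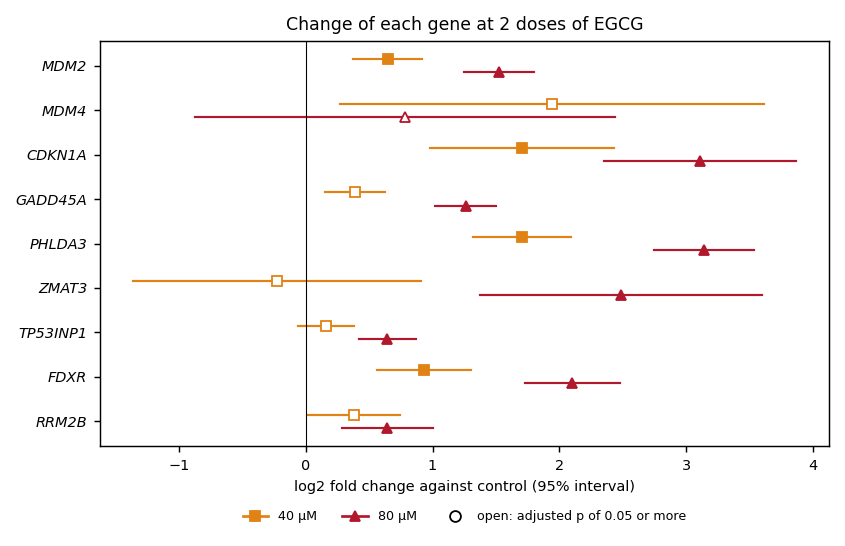
Log2 fold change against control of each gene at 40 µM (squares) and 80 µM (triangles) with its 95% interval, over 3 libraries per dose; open symbols have an adjusted p of 0.05 or more. At 80 µM 8 of 9 symbols are filled, and the widest intervals belong to MDM4 and ZMAT3.

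MDM2 (ENSG00000135679, chr12:68808176-68850686, plus strand, protein coding) was the regulator with the steadier values. Control libraries gave 349.8, 354.2 and 275.4 CPM, 40 µM libraries 450.0, 532.3 and 549.9 CPM and 80 µM libraries 898.3, 974.4 and 943.6 CPM. All 3 libraries of each dose lay above all 3 of the dose before, with no overlap. The mean went from 326.5 ± 44.3 through 510.7 ± 53.3 to 938.8 ± 38.3 CPM (SD, n = 3 each). MDM2 rose by 0.65 ± 0.12 on the log2 scale at 40 µM and by 1.52 ± 0.12 at 80 µM (log2 fold change ± SE, edgeR's quasi-likelihood test, adjusted p = 0.0253 and 1.7e-05), which is 1.56-fold and 2.88-fold. From 40 to 80 µM it rose by 0.88 ± 0.12 (adjusted p = 0.00107). The call at 40 µM was lost in 4 of the 9 fits that left out 1 library (adjusted p = 0.0676 without control replicate 1, 0.0608 without control replicate 3, 0.0936 without 40 µM replicate 2 and 0.0910 without 40 µM replicate 3). It was also lost with only the 6 libraries compared (adjusted p = 0.0938). MDM2 shares exonic bases with the carboxypeptidase M gene, a pseudogene and an antisense gene, which held between 0 and 269 counts per library against 3597 to 15298 for MDM2. The sources used here do not give the strand setting of the counting, so reads from opposite strands there cannot be told apart.

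MDM4 (ENSG00000198625, chr1:204516379-204558120, plus strand), which binds and inhibits p53 without being a strong ligase itself, did not pass the test in any comparison. Control libraries gave 14.24, 13.54 and 9.952 CPM, 40 µM libraries 12.78, 121.6 and 11.16 CPM and 80 µM libraries 23.20, 20.96 and 20.81 CPM. The outlying value was 40 µM replicate 2, with 1689 counts against 209 and 153 in the other 40 µM libraries, a 10.9-fold range within the dose. Among 10848 genes averaging at least 5 CPM, 99.82% had a smaller range at 40 µM. The difference from control was 1.94 ± 0.75 at 40 µM (adjusted p = 0.191) and 0.78 ± 0.75 at 80 µM (adjusted p = 0.451, 95% interval -0.87 to 2.44). Without 40 µM replicate 2, the differences for MDM4 were -0.08 at 40 µM (adjusted p = 0.880) and 0.77 at 80 µM, and the latter passed (adjusted p = 0.00588). The 80 µM libraries of MDM4 all lay above the control libraries. Its difference between the doses, -1.16 ± 0.73 with all libraries (adjusted p = 0.284), turned to 0.86 without that library (adjusted p = 0.0151). The ratio of MDM2 to MDM4 counts was 24.57, 26.16 and 27.67 without EGCG, 35.22, 4.378 and 49.29 with 40 µM and 38.71, 46.5 and 45.34 with 80 µM. The ratio was thus above every control value in 5 of the 6 treated libraries and below all of them in 40 µM replicate 2.

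CDKN1A (ENSG00000124762, chr6:36676460-36687339, plus strand) encodes p21, which blocks the kinases that carry cells from G1 into S phase. Control libraries gave 29.96, 31.09 and 31.54 CPM, 40 µM libraries 112.4, 102.1 and 86.92 CPM and 80 µM libraries 354.2, 327.1 and 117.2 CPM. The groups did not overlap, although 80 µM replicate 3 lay just above the highest 40 µM library and far below the other 80 µM libraries. CDKN1A rose by 1.70 ± 0.33 at 40 µM and 3.11 ± 0.34 at 80 µM (adjusted p = 0.0270 and 0.000107), or 3.26-fold and 8.62-fold. Between the doses it rose by 1.41 ± 0.32 (adjusted p = 0.0110). Without 80 µM replicate 3 the rise of CDKN1A at 80 µM was 3.48, and that between doses 1.77 (adjusted p = 1.5e-06 and 0.000309). The call of CDKN1A at 40 µM was lost in 6 of the 9 fits with 1 library left out, those without any 1 of the control or 40 µM libraries, with adjusted p from 0.0519 to 0.106. With 80 µM replicate 3 left out the adjusted p at 40 µM was 0.000247. DINOL, a noncoding RNA gene on the opposite strand, shares 146 exonic bases with CDKN1A and held 0 to 3 counts per library.

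GADD45A (ENSG00000116717, chr1:67685061-67688338, plus strand), a stress sensor that acts in the G2/M checkpoint and on stress kinases, had 59.72, 67.32 and 59.10 CPM in the control libraries. It had 86.75, 72.84 and 84.00 CPM with 40 µM and 158.5, 140.8 and 147.4 CPM with 80 µM. Each dose lay above the one before without overlap. The difference at 40 µM of 0.39 ± 0.11 did not pass (adjusted p = 0.0913), whereas GADD45A rose by 1.26 ± 0.11 at 80 µM and by 0.87 ± 0.11 between the doses (adjusted p = 2.4e-05 and 0.000666).

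PHLDA3 (ENSG00000174307, chr1:201464383-201469237, minus strand), a small protein with a pleckstrin homology domain that keeps the survival kinase AKT from the membrane, had the largest estimated rise of the 9 at 80 µM with all libraries, close to that of CDKN1A. Control libraries gave 5.938, 6.397 and 6.583 CPM, 40 µM libraries 25.49, 16.20 and 19.91 CPM and 80 µM libraries 51.91, 53.70 and 61.18 CPM. No groups overlapped, and the lowest 80 µM library was above the highest 40 µM library. PHLDA3 rose by 1.70 ± 0.17 at 40 µM (3.26-fold) and by 3.14 ± 0.18 at 80 µM (8.81-fold, adjusted p = 0.000812 and 2.6e-06). It rose by 1.44 ± 0.16 between the doses (adjusted p = 0.000472). Unlike MDM2, CDKN1A and FDXR, PHLDA3 kept its call at 40 µM under all 16 alternatives run. In 80 µM replicate 3, where CDKN1A was lowest for its dose, PHLDA3 was highest. MDM4, ZMAT3, TP53INP1 and RRM2B were, like CDKN1A, lowest for their dose in that library.

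ZMAT3 (ENSG00000172667, chr3:179017223-179072279, minus strand), a zinc finger protein that binds RNA and affects splicing and mRNA stability, was high at 80 µM and scattered around the control level at 40 µM. Control libraries gave 6.478, 6.992 and 6.277 CPM, 40 µM libraries 10.27, 1.08 and 5.323 CPM and 80 µM libraries 41.72, 38.54 and 30.32 CPM. The 40 µM libraries lay on both sides of the control, with 40 µM replicate 2 at 15 counts, while every 80 µM library was above all others. ZMAT3 differed from control by -0.23 ± 0.51 at 40 µM (adjusted p = 0.836), and by 0.24 without 40 µM replicate 2 (adjusted p = 0.727). It rose by 2.48 ± 0.50 at 80 µM (5.60-fold) and by 2.71 ± 0.51 between the doses (adjusted p = 0.00351 and 0.00434). Without 40 µM replicate 2 those rises of ZMAT3 were 2.48 and 2.23 (adjusted p = 0.000105 and 0.00182).

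TP53INP1 (ENSG00000164938, chromosome 8, minus strand), a nuclear protein that promotes p53 activity and also takes part in autophagy, was among the more abundant of the 9 and rose by less than GADD45A in estimate. Control libraries gave 279.4, 288.0 and 249.9 CPM, 40 µM libraries 274.8, 319.7 and 319.5 CPM and 80 µM libraries 443.5, 430.3 and 404.0 CPM. The 40 µM values overlapped the control and the 80 µM values overlapped neither group. The difference at 40 µM was 0.16 ± 0.10 (adjusted p = 0.398, 95% interval -0.06 to 0.38). TP53INP1 rose by 0.64 ± 0.10 at 80 µM and by 0.48 ± 0.10 between the doses (adjusted p = 0.000843 and 0.00741).

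FDXR (ENSG00000161513, chr17:74862497-74873031, minus strand) encodes ferredoxin reductase, a mitochondrial enzyme that passes electrons to ferredoxins for steroid and iron-sulfur cluster synthesis. Control libraries gave 8.840, 14.13 and 11.94 CPM, 40 µM libraries 24.70, 20.30 and 21.58 CPM and 80 µM libraries 49.01, 48.54 and 52.07 CPM. The 3 dose groups were separate, and the control libraries spread most in relative terms. FDXR rose by 0.93 ± 0.17 at 40 µM (1.91-fold), by 2.10 ± 0.17 at 80 µM (4.29-fold) and by 1.17 ± 0.16 between the doses (adjusted p = 0.0195, 1.6e-05 and 0.00106). Its call at 40 µM was lost without control replicate 1, control replicate 3 or 40 µM replicate 3 (adjusted p = 0.0556, 0.0740 and 0.0586) and with only the 6 libraries compared (adjusted p = 0.0803).

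RRM2B (ENSG00000048392, chromosome 8, minus strand), the p53-inducible small subunit of ribonucleotide reductase that supplies deoxynucleotides for DNA repair, had 11.81, 12.50 and 8.957 CPM in the control libraries. It had 13.57, 14.90 and 14.87 CPM with 40 µM and 20.08, 16.43 and 15.43 CPM with 80 µM. Its libraries also separated by dose without overlap, but by small steps. RRM2B differed by 0.38 ± 0.16 at 40 µM and by 0.26 ± 0.16 between doses, neither of which passed (adjusted p = 0.229 and 0.272), and rose by 0.64 ± 0.16 at 80 µM (1.56-fold, adjusted p = 0.0115).

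**Figure D2:**
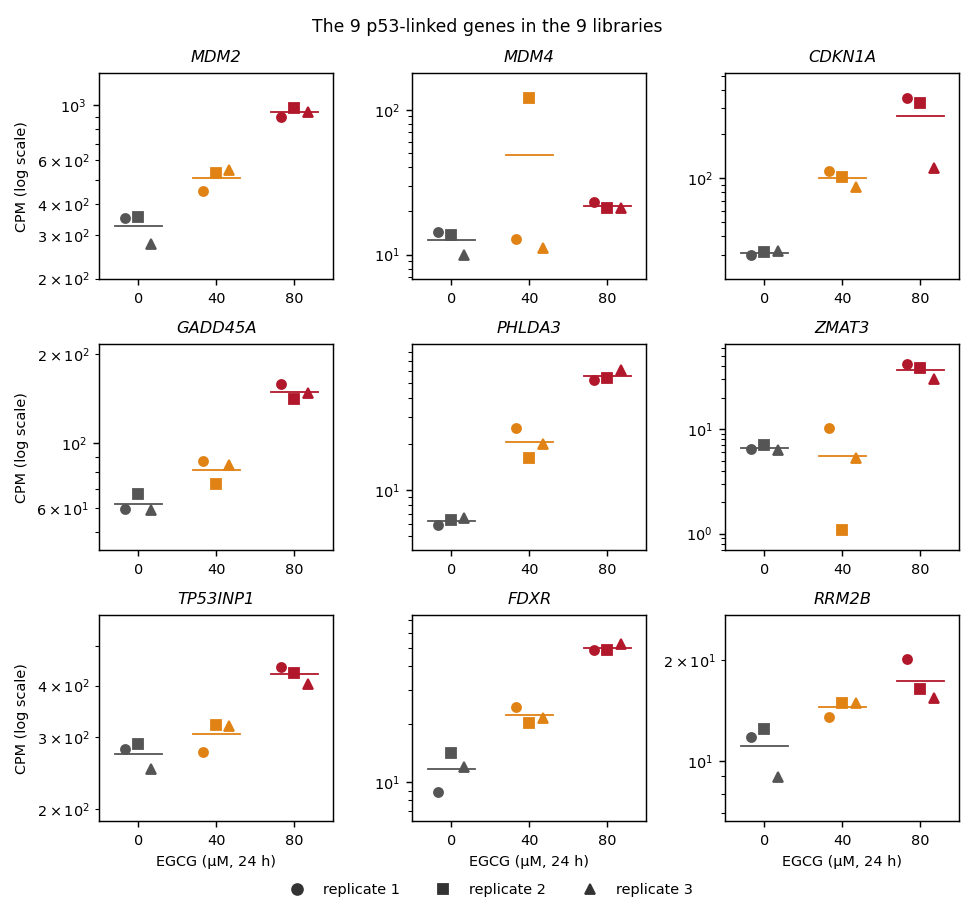
CPM of the 9 genes in each library on a log axis, by EGCG dose (0, 40 and 80 µM, 24 h); symbols mark the replicate number and lines the mean of 3 libraries. MDM4 at 121.6 CPM and ZMAT3 at 1.08 CPM in 40 µM replicate 2, and CDKN1A at 117.2 CPM in 80 µM replicate 3, lie far from the other libraries of their dose.

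Whether the second 40 µM added as much as the first was tested as the difference of the 2 steps on the log2 scale. For CDKN1A the steps were 1.70 and 1.41 and their difference -0.30 ± 0.54, and for PHLDA3 they were 1.70 and 1.44 with a difference of -0.27 ± 0.28 (adjusted p = 0.804 and 0.650). MDM2 and FDXR had slightly larger second steps, both by 0.23 (SE 0.21 and 0.28, adjusted p = 0.592 and 0.700). The 95% interval of the difference was -1.50 to 0.91 for CDKN1A and -0.24 to 0.70 for MDM2. The second step exceeded the first by 0.49 ± 0.19 in GADD45A and 2.94 ± 0.91 in ZMAT3 (adjusted p = 0.199 and 0.134), and in MDM4 the difference was -3.10 ± 1.21 (adjusted p = 0.206). Without 40 µM replicate 2 the difference turned to 0.94 in MDM4 (adjusted p = 0.329) and was 1.99 in ZMAT3 (adjusted p = 0.224). Without 80 µM replicate 3 it was 0.06 in CDKN1A (adjusted p = 0.913). None of the 9 genes passed this test, for which 0.294% of all genes were called at an adjusted p under 0.05. At an unadjusted p under 0.05 there were 3 of the 9 (MDM4, ZMAT3 and GADD45A), a count with no matching share of all genes here. Neither DESeq2 nor limma-voom called any of the 9, although DESeq2 gave MDM4 no adjusted p.

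In 40 µM replicate 2, 18 genes were at least 3-fold above and 35 at least 3-fold below both other 40 µM libraries, 0.489% of the 10848 genes compared, and over all libraries this share ran from 0.249 to 0.489%. That library stood apart from the other 40 µM libraries on the second principal component (-51.83 against -8.19 and -14.21), and its distance from 40 µM replicate 1 was the largest of the 9 replicate pairs (chi-square per degree of freedom 33.21). MDM4 was among the former and ZMAT3 among the latter. Within 80 µM, CDKN1A ranged 3.02-fold, and 98.52% of genes ranged less. FDXR, like PHLDA3, had its highest value in 80 µM replicate 3, the library with the lowest CDKN1A of that dose. MDM4, ZMAT3, TP53INP1 and RRM2B, like CDKN1A, had their lowest 80 µM value there (20.81, 30.32, 404.0 and 15.43 CPM). MDM2 and GADD45A lay between their other 80 µM libraries. The cause of these values was not tested.

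**Figure D3:**
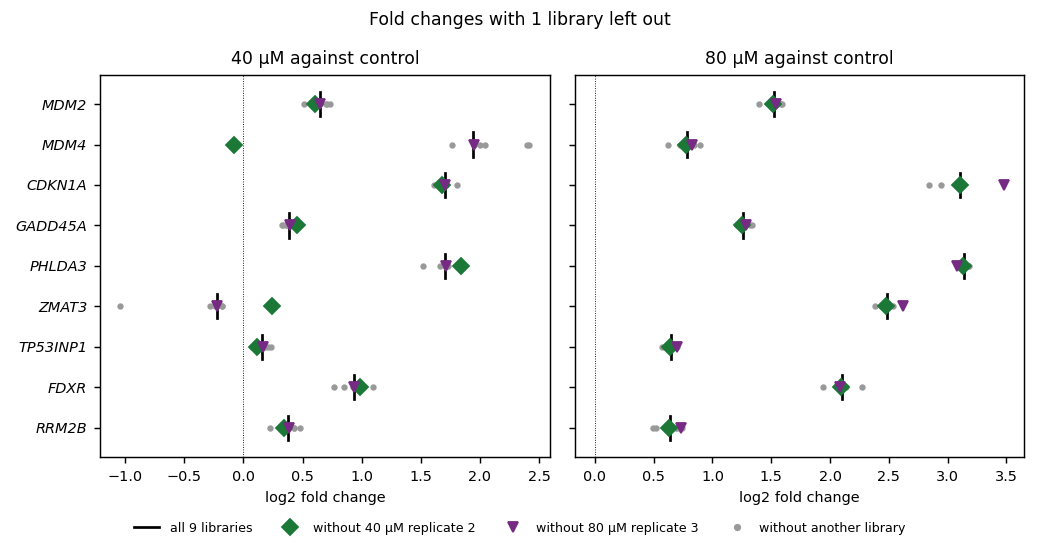
Log2 fold change against control at 40 µM (left) and 80 µM (right) with all 9 libraries (black bars) and with each library left out in turn (points; diamonds, without 40 µM replicate 2; triangles, without 80 µM replicate 3). MDM4 moved from 1.94 to -0.08 at 40 µM without 40 µM replicate 2, and the 80 µM values stayed on 1 side of 0.

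Levels between genes were compared as CPM per kilobase of exon (the union of GENCODE 29 exons). In the control the order was TP53INP1 (48.0 ± 3.52), GADD45A (30.0 ± 2.21), MDM2 (24.6 ± 3.34), CDKN1A (10.1 ± 0.267), FDXR (3.23 ± 0.739), PHLDA3 (2.01 ± 0.106), RRM2B (2.00 ± 0.338), MDM4 (1.14 ± 0.209) and ZMAT3 (0.682 ± 0.038 CPM per kilobase, SD, n = 3 each). Only PHLDA3 and RRM2B overlapped among neighbours in that order. At 40 µM GADD45A (39.2 ± 3.56), MDM2 (38.5 ± 4.01) and CDKN1A (32.9 ± 4.2) overlapped each other, as did PHLDA3 (6.54 ± 1.49) and FDXR (6.17 ± 0.629 CPM per kilobase). MDM4, at 1.01 to 11.04 CPM per kilobase there, overlapped PHLDA3, FDXR, RRM2B and ZMAT3. At 80 µM CDKN1A (87.3 ± 42.5), TP53INP1 (75.0 ± 3.54), GADD45A (72.0 ± 4.31) and MDM2 (70.7 ± 2.88 CPM per kilobase) overlapped in their libraries. PHLDA3 stood at 17.7 ± 1.57, above FDXR at 13.9 ± 0.532 CPM per kilobase. By this length PHLDA3 had been below FDXR in the control. ZMAT3, the lowest in the control, reached 3.82 ± 0.610 and overlapped RRM2B at 3.12 ± 0.441, with MDM4 lowest at 1.97 ± 0.122 CPM per kilobase. The order depends on the length used. The gene lengths implied by the deposited FPKM values were longer than the exon union, 22147 against 13284 bases for MDM2 and 40251 against 11008 for MDM4, and with FPKM the control mean of MDM2 (14.8) was above that of GADD45A (13.6 FPKM). With FPKM the control mean of PHLDA3 (1.285) was already above that of FDXR (1.028 FPKM), so their change of order depends on the length. At 80 µM CDKN1A had 43.5 ± 21.1 FPKM and TP53INP1 73.6 ± 3.2 FPKM. Fold changes within a gene do not use its length.

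**Figure D4:**
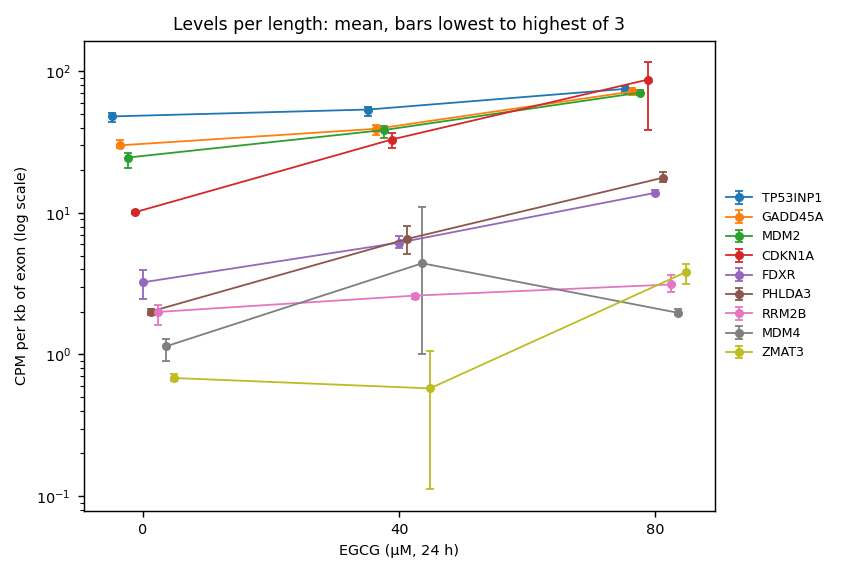
Mean CPM per kilobase of exon of the 9 genes by EGCG dose on a log axis, with bars from the lowest to the highest of 3 libraries. CDKN1A went from 10.1 to 87.3 and by this length met TP53INP1, GADD45A and MDM2, while ZMAT3 and MDM4 had wide bars at 40 µM. With the deposited FPKM the 80 µM mean of CDKN1A was 43.5, against 73.6 for TP53INP1.

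Other genes of the pathway were read from lists, which were also chosen with earlier results of these data known. Of 20 genes on the list of p53 and regulators of its stability or activity, none passed edgeR's test at 40 µM, where 3 had an unadjusted p under 0.05, DESeq2 called 1 (the ligase RCHY1) and limma-voom none. Over all genes at that dose, edgeR called 1.49% higher and 0.813% lower, and DESeq2 called 834 of 15982. The unadjusted count has no matching share of all genes here. At 80 µM 6 of the 20 rose and 3 fell, with a median difference of 0.08, and 17.4% of all genes were called higher and 17.5% lower, so the fallers were near the background share. The 9 calls for p53 and its regulators at 80 µM became 5 without control replicate 1, 80 µM replicate 1 or 80 µM replicate 2, and 4 with no filter on low counts. The acetyltransferase EP300 rose by 0.70 ± 0.13, the kinase HIPK2, which phosphorylates p53, by 0.54 ± 0.12, and the deacetylase SIRT1 by 0.50 ± 0.13 (adjusted p = 0.00245, 0.00674 and 0.0143, the last becoming 0.0517 without 80 µM replicate 1). The checkpoint kinase CHEK2 fell by 0.51 ± 0.11 (adjusted p = 0.00465).

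Of 32 further p53 targets, 30 could be tested. At 40 µM 5 rose and 1 fell, at 80 µM 20 rose and 1 fell, and from 40 to 80 µM 15 rose and none fell, nor was any lower at an unadjusted p under 0.05. The shares of all genes called higher were 1.49%, 17.4% and 10.9%. Their median difference was 0.29 at 40 µM and 0.77 at 80 µM. By p-value the leading ones at 80 µM were the death receptor TNFRSF10B, the autophagy regulator DRAM1, the TNF receptor family member EDA2R and the stress cytokine GDF15. TNFRSF10B rose by 2.66 ± 0.10 (29.3 to 185.5 CPM) and DRAM1 by 3.24 ± 0.19 (2.62 to 24.9 CPM, adjusted p = 1.4e-07 and 3.2e-06). EDA2R rose by 2.48 ± 0.13 (6.76 to 37.7 CPM) and GDF15 by 7.90 ± 0.42 (0.174 to 42.8 CPM, adjusted p = 1.8e-06 and 1.6e-06). The control mean of GDF15 is under the floor of 3 counts, so the size of its fold change depends on the prior count. GDF15 and TNFRSF10B are also known to be induced by the ATF4 and CHOP stress factors. The antiproliferative gene BTG2, the 1 target that fell, went from 491.5 CPM to 283.8 at 40 µM and 311.4 at 80 µM (-0.79 and -0.66, adjusted p = 0.00434 and 0.00101), and was chosen after its values were seen.

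The list of genes that the DREAM repressor complex lowers when p21 is induced held mitotic and S phase genes, and none of its 20 members passed edgeR's test at 40 µM. There 4 were higher and 4 lower at an unadjusted p under 0.05, DESeq2 called 3 (AURKA and KIF2C higher, E2F1 lower) and limma-voom none. Of all genes at 40 µM, edgeR called 1.49% higher and 0.813% lower, and DESeq2 called 834 of 15982. The unadjusted counts in this paragraph have no matching share of all genes here. At 80 µM 14 fell and none rose by edgeR, DESeq2 or limma-voom (1 was higher at an unadjusted p under 0.05), with a median of -0.56, and between the doses 17 fell. Of all genes 17.5% were called lower at 80 µM and 12.1% between the doses. The transcription factor E2F1, which drives S phase genes, fell by 1.00 ± 0.12, the mitotic kinases AURKB and PLK1 by 0.86 ± 0.11 and 0.79 ± 0.11 and the survivin gene BIRC5 by 1.35 ± 0.20 at 80 µM (adjusted p = 0.000199, 0.000258, 0.000418 and 0.000548). Of 14 G1 cyclins, kinases and E2F partners, none passed at 40 µM by edgeR, DESeq2 or limma-voom (2 higher at an unadjusted p under 0.05). At 80 µM 2 of the 14 rose, near the share of all genes (17.4%), and 6 fell (17.5% of all genes), with a median of -0.39. These 8 calls among the G1 genes became 5 without 80 µM replicate 1 and 3 without 80 µM replicate 2, all lower. Cyclin E1 (CCNE1) fell by 1.29 ± 0.11, its kinase CDK2 by 0.99 ± 0.16, the pocket protein RBL2 by 0.57 ± 0.11 and the replication clamp PCNA, also known as a p53 target, by 0.46 ± 0.11 (adjusted p = 2.3e-05, 0.000918, 0.00290 and 0.00879, the last becoming 0.0510 without 80 µM replicate 2).

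**Figure D5:**
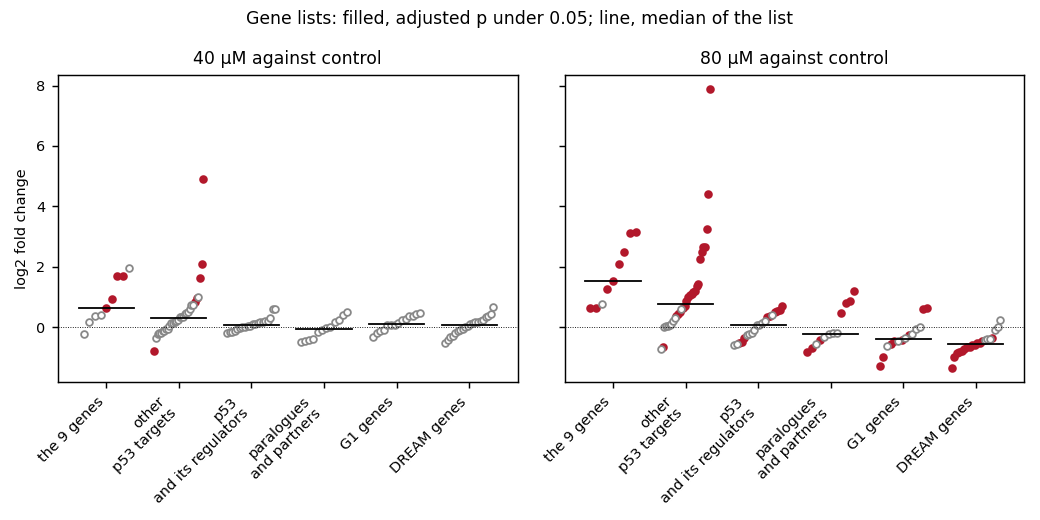
Log2 fold change against control of each gene in the 6 lists at 40 µM (left) and 80 µM (right); filled points have an adjusted p under 0.05 and lines mark the list median. The 9 genes have a median of 1.52 at 80 µM and the DREAM genes one of -0.56.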

How the data were processed

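The authors deposited whole-number counts per gene and library, not normalized, per the file headers. They also deposited FPKM values, scaled by length and depth, which served only to check gene lengths and levels per length. CASAVA 1.8, HISAT2, SAMtools 1.3.1, edgeR and GRCh38 appear in the submitters' processing notes. The annotation and the counter were not given in sources used here. Positions are from GENCODE 29.

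Counts were filtered with filterByExpr by group, scaled by TMM (factors 0.945 to 1.031) and tested with edgeR 4.0.16 (quasi-likelihood, R 4.3.3) on all 9 libraries, with dose as the factor. Benjamini-Hochberg adjustment ran over 15982 genes, and a call is an adjusted p under 0.05. The SE is the log2 fold change over the square root of F. A floor of 3 counts is 0.183 to 0.237 CPM and covers counting error only. Alternatives were DESeq2 1.42.0, limma-voom (limma 3.58.1), other scalings, no filter, 6 libraries, a replicate block and leaving out each library. From each list the 4 genes with the smallest p at 80 µM against control were named. The members and lists were chosen with earlier results of these data known. No replicates were copies of each other (chi-square per degree of freedom 12.71 to 33.21). Values of some genes are not reported here.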

Additional observations from a re-analysis of the deposited data

How the results depend on the processing

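Among the 9 genes, the calls at 80 µM against control and between the doses stayed within 1.5 times of their count under all 16 alternatives. The 4 genes called at 40 µM became 2 with only the 6 libraries compared, 2 with a replicate block and 1 to 4 with 1 library left out. With the replicate block, MDM2 and FDXR lost their call at 40 µM (adjusted p = 0.0597 and 0.0517). Same-numbered libraries did not deviate together (correlations -0.14 to 0.05), so the numbers were not taken as pairs. MDM4 between the doses ran from -1.62 to 0.86 with 1 library left out, and reversed without 40 µM replicate 2. DESeq2 gave MDM4 no adjusted p in any comparison. Over all genes, 368 were called at 40 µM in the reported fit, 834 by DESeq2, 228 with no filter, 153 with 6 libraries, 183 with the replicate block and 136 to 469 with 1 library left out. Calls between the doses numbered 2101 to 4059 with 1 library left out. The lowest count behind a value of the 9 genes was 15, for ZMAT3 in 40 µM replicate 2.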

Other observations

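Of 12 paralogues and partners of the 9 genes tested, none passed edgeR's quasi-likelihood test at 40 µM, where 3 were lower at an unadjusted p under 0.05, DESeq2 called 1 (PHLDA1, lower) and limma-voom none. Over all genes at that dose, edgeR called 1.49% higher and 0.813% lower, and DESeq2 called 834 of 15982. The unadjusted count has no matching share of all genes here. At 80 µM 4 rose and 3 fell (median -0.22), and 2 rose and 1 fell without 80 µM replicate 3. Of all genes 17.4% were called higher and 17.5% lower at 80 µM with all 9 libraries. The counts without 80 µM replicate 3 have no matching share here. GADD45B fell by 0.69 ± 0.14 at 80 µM, where GADD45A rose by 1.26, and the large ribonucleotide reductase subunit RRM1 fell by 0.44 ± 0.11, where RRM2B rose by 0.64 (adjusted p = 0.00347 for GADD45B and 0.0115 for RRM1). GADD45G, like GADD45A, rose at 80 µM, by 0.86 ± 0.29 (adjusted p = 0.0394), and was chosen after its values were seen. The call of RRM1 was lost without 80 µM replicate 2 or 3 (adjusted p = 0.0552 in both). The differences between paralogues were not tested. The kinase inhibitor CDKN1C rose by 0.79 ± 0.19 and the zinc finger gene ZMAT1 by 1.18 ± 0.28 (adjusted p = 0.00875 and 0.00867). CDKN1B, another p21 relative, differed by -0.24 (adjusted p = 0.145).

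The patterns nearest to MDM2 over the 9 libraries, among 10488 genes and by root mean square difference of log2 CPM from the control mean, belonged to CEBPG (0.11), TMTC1 (0.12) and FOXO1 (0.13). Those nearest to CDKN1A were NIBAN1, CTH and DRAM1, all at 0.43.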
